A study of Mus musculus with 9 samples.

Results

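SVR cells treated with propranolol for 24 h were compared with SVR cells treated for 4 h. SVR is a mouse angiosarcoma line, made from endothelial cells that carry a viral large T antigen and an activated H-ras, and the labels give 50 µM propranolol for both groups. The members of the comparison were the 3 arrays labelled 24 h and the 3 labelled 4 h, 6 of the 9 arrays of the series, and all probes detected on the 3 arrays of either group. The other 3 arrays held sham-treated cells, labelled 0 h, and entered neither the normalization nor the test. They are given beside some genes as a level only. RNA was hybridized to Illumina bead arrays, on which the signal of a probe is the mean brightness of its beads. The methods state that RNA of biological replicates was pooled and run in triplicate. The p-values here therefore compare arrays, whose spread may be purely technical. The labels hold no untreated arrays at 4 h or 24 h, so the length of exposure and the time in culture, which was confluent, cannot be told apart. The study's methods give a higher dose and a 24 h sham, and do not describe the 4 h arrays.

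Propranolol blocks the beta adrenergic receptors, through which adrenaline and noradrenaline raise cyclic AMP in the cell. It is used against infantile hemangioma, a benign tumor of endothelial cells. It is also a weak base with a hydrophobic ring system, and drugs of that kind gather in lysosomes and slow the release of cholesterol from them. Cells short of cholesterol in the endoplasmic reticulum release the SREBP factors, which switch on the genes of sterol and fatty acid synthesis.

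The 4 h arrays had mean signals of 326.6 to 373.2 intensity units and the 24 h arrays of 306.7 to 341.6. Of 25697 probes, 11494 to 12033 were detected per array at 4 h and 11889 to 12245 at 24 h. The correlation over probes, as a description since probes are not replicates, was 0.996 to 0.997 within a group and 0.967 to 0.968 between the groups. Replicate 3 at 24 h was the only array on a second BeadChip. Precision is limited by there being 3 arrays a group. The endothelial label was checked against 34 markers with a probe, of which 26 were detected on all 6 arrays. Pecam1 and Cdh5, which join endothelial cells to each other, were among these, and Kdr, Erg, Sox17, Clec14a and Gja4 were detected on none.

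Steady state mRNA levels are given as log2 intensity after background correction and quantile normalization of the 6 arrays, and a difference is the 24 h level minus the 4 h level. A gene was called where limma gave an adjusted p under 0.05 and the groups differed 2-fold. Of 7870 genes tested, 341 (4.33%) were higher and 91 (1.16%) lower at 24 h. The rises were thus 78.9% of the 432 genes called, and 91.4% in the authors' normalized table, which has neither background correction nor quantile normalization. Without background correction alone they were 88.7%. A 4-fold limit left 55 rises and 0 falls. At any size 55.9% of the genes passed the adjusted p, and the arrays of the groups did not overlap for 63.4%, as for all 432 genes called at 2-fold. The median difference over all genes was -0.034, with quartiles at -0.28 and 0.256. Where another probe of a called gene was tested, for 123 genes, 103 had a second probe called at 1.5-fold or more in the same direction and 0 had one in the opposite direction.

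**Figure D1:**
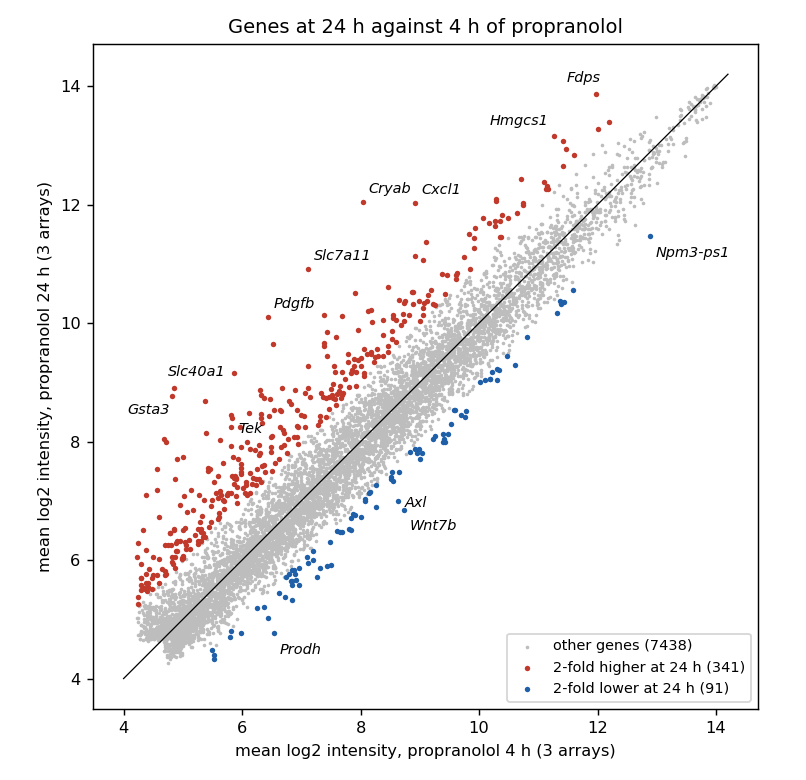
Mean log2 intensity of each of 7870 genes on the 3 arrays at 24 h (vertical axis) against the 3 arrays at 4 h (horizontal axis), with the line of equal levels. Red points are the 341 genes called higher by 2-fold or more at 24 h and blue points the 91 called lower, and the red points reach farther from the line, with Slc40a1 and Cryab at log2 differences of 4.06 and 4.00.

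The 12 largest rises were 2.98 to 4.06 on the log2 scale. They were Slc40a1, Cryab, Gsta3, Slc7a11, Pdgfb, Icam1, Casp4, Gsta1, Clec4d, Acss2, Cxcl1 and Gsta2. Of these, Gsta3, Icam1 and Clec4d were detected on 2 of the 3 arrays at 4 h and Gsta2 on 1, so that their 4 h levels, and with them the size of the rise, lie near the background. Slc40a1 encodes ferroportin, the iron exporter of the cell. It lay at log2 levels of 4.85, 4.71 and 5 on the arrays at 4 h and at 8.96, 8.91 and 8.87 at 24 h. All 24 h arrays were above all 4 h arrays, by 4.06 (standard error 0.09, adjusted p = 8e-08, n = 3 and 3). Cryab, the small heat shock protein alpha B-crystallin, went from 8.02, 8.08 and 8.01 to 11.85, 12.04 and 12.23. Its groups were again far apart, with a difference of 4.00 (standard error 0.10, adjusted p = 1.1e-07). Slc7a11, the cystine importer that feeds glutathione synthesis, lay at 7.09, 7.06 and 7.23 at 4 h and at 10.92, 10.92 and 10.90 at 24 h. This is a rise of 3.79 (standard error 0.07, adjusted p = 4.1e-08), with almost no spread among the 24 h arrays.

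The transferases Gsta3, Gsta1 and Gsta2 join glutathione to reactive compounds. Gsta3 lay at 4.98, 4.87 and 4.58 at 4 h and at 8.66, 8.79 and 8.85 at 24 h, a rise of 3.96 (standard error 0.11, adjusted p = 1.7e-07). Gsta1 rose by 3.28 and Gsta2 by 2.98, and because these genes are near-identical copies their probes may share transcripts. Pdgfb, the growth factor with which endothelial cells recruit pericytes, lay at 6.41, 6.48 and 6.42 at 4 h. At 24 h it lay at 10.13, 10.10 and 10.09, which put all 3 arrays above the 4 h arrays by 3.67 (standard error 0.06, adjusted p = 3.8e-08), while a second probe of Pdgfb gave 1.30. Icam1, an adhesion receptor for leukocytes, rose from 4.50, 4.74 and 4.80 to 8.17, 7.91 and 8.03, a difference of 3.36. Cxcl1, a chemokine that draws neutrophils, went from 8.78, 8.91 and 9.08 to 11.97, 12.07 and 12, a difference of 3.09. The groups did not overlap for either gene. The others were Casp4, an inflammatory caspase (3.32, and 0.87 with a second probe), Clec4d, a C-type lectin (3.27), and the acetate-activating enzyme Acss2 (3.12, and 0.56 with a second probe).

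The falls were smaller. Wnt7b, a secreted Wnt ligand, lay at 8.75, 8.76 and 8.68 at 4 h and at 6.97, 6.80 and 6.77 at 24 h. The 24 h arrays were all lower, by 1.88 on the log2 scale (difference -1.88, standard error 0.08, adjusted p = 7.1e-07), and a second probe gave -1.41. Prodh, the first enzyme of proline breakdown, went from 6.47, 6.70 and 6.46 to 4.90, 4.66 and 4.74 (difference -1.78, standard error 0.09, adjusted p = 2.5e-06). Axl, a receptor tyrosine kinase that binds Gas6, went from 8.71, 8.66 and 8.51 to 7.03, 6.93 and 7.05 (difference -1.62, standard error 0.08, adjusted p = 1.5e-06). None of these groups overlapped. The other genes of the 12 largest falls had differences of -1.58 to -1.40. They were the kinases Sgk2 (-1.58), Melk (-1.46, and -0.46 to -0.36 with other probes) and Prkg2 (-1.44), Phlda2 (-1.55), the procollagen processing enhancer Pcolce (-1.54), the Wnt inhibitor Apcdd1 (-1.53), Npm3-ps1, Kyat3 and the nucleolar protein Ncl (each -1.40). Npm3-ps1 is annotated as a pseudogene, and its probe may read the parent gene.

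**Figure D2:**
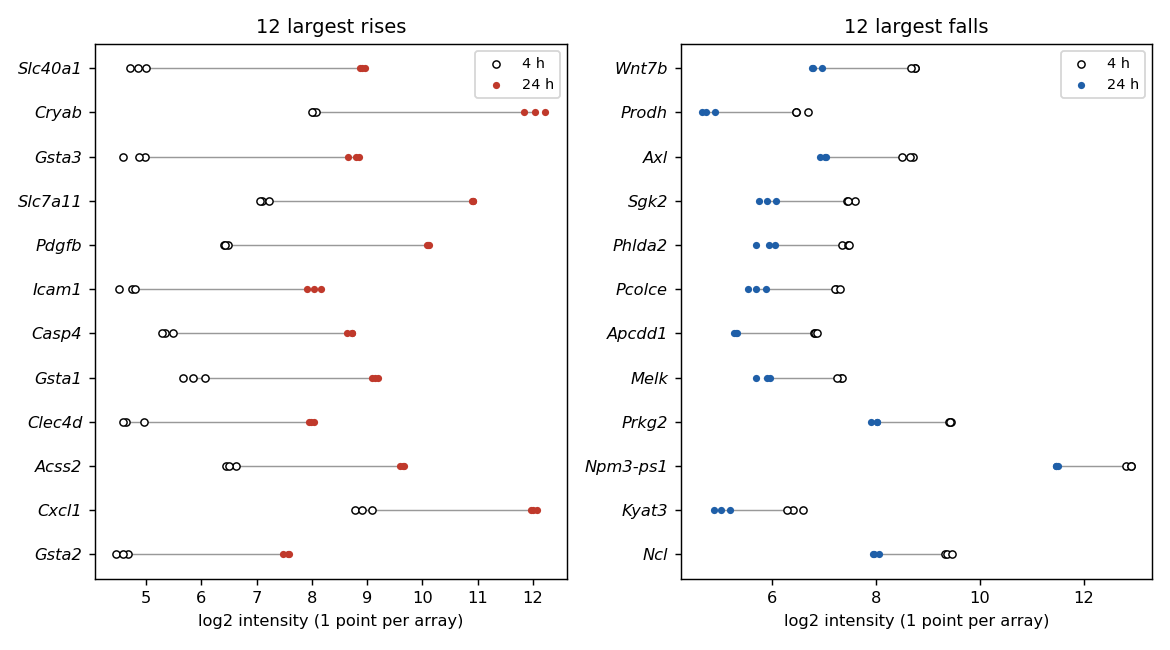
Log2 intensity of the 12 genes with the largest rise (left) and the 12 with the largest fall (right), 1 point per array, open for 4 h and filled for 24 h, with a line between the group means. In no gene do the points of the groups overlap, and the gaps run from 2.98 to 4.06 among the rises and from -1.88 to -1.40 among the falls.

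Some genes were detected in a single group, and these have only a bound, taken after background correction against the dimmest detected probes. Such a bound, here and below, is tied to that correction. Of the 341 genes called higher, 22 were detected on no array at 4 h. Pde1b, a phosphodiesterase for cyclic nucleotides, was at least 5.50-fold higher at 24 h (adjusted p = 2.9e-07), Slc12a8 at least 3.62-fold, and the siderophore binding protein Lcn2 at least 3.12-fold. Ct55 was at least 2.88-fold higher. Without background correction the log2 differences were 1.23 for Pde1b, 0.88 for Slc12a8, 0.82 for Lcn2 and 0.68 for Ct55. These are smaller than the bounds, and only Pde1b kept 2-fold. Of the 91 genes called lower, 2 were detected on no array at 24 h. Plac1 was at least 1.92-fold lower and Acta2, smooth muscle actin, at least 1.91-fold lower, although a second Acta2 probe gave a difference of -0.07. Uncorrected for background, the differences were -0.43 for Plac1 and -0.38 for Acta2, again smaller than the bounds.

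Genes of sterol synthesis rose with few exceptions. Of 15 measured genes from the mevalonate pathway to cholesterol, 12 rose by 1.5-fold or more and 0 fell, with a median difference of 1.30, where 10.6% of all genes tested rose and 7.41% fell by that measure. Hmgcs1, which makes HMG-CoA, the substrate of the enzyme that statins block, lay at 11.19, 11.28 and 11.35 at 4 h and at 13.12, 13.12 and 13.20 at 24 h. Fdps, which makes farnesyl diphosphate, went from 11.94, 12.05 and 11.91 to 13.90, 13.85 and 13.82. These genes were bright already at 4 h, all 24 h arrays lay above that level, and the differences were 1.87 and 1.89 (standard error 0.07 each, adjusted p = 5.1e-07 and 4e-07). Mvd and Lss, which act before and after squalene, rose by 1.62 and 1.61, Cyp51 by 1.51, Pmvk by 1.48 and Sqle, which oxidizes squalene, by 1.10. The members that did not pass were Ebp (0.51), Idi1 (0.50) and Tm7sf2 (0.29). Among 9 genes of sterol uptake and of the control of SREBP, 2 rose and 0 fell. They were Stard4, a cholesterol carrier (1.33), and Insig1, which holds SREBP in the endoplasmic reticulum (1.31, and 0.02 to 1.39 with other probes), whereas Srebf2 itself differed by 0.52 and Srebf1 by -0.21. The 3 groups of arrays stood in steps for these genes. With all 9 arrays normalized together Hmgcs1 had mean levels of 9.81 in sham, 11.31 at 4 h and 13.21 at 24 h, Fdps 10.61, 12 and 13.86, and Mvd 7.28, 8.77 and 10.41.

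The promoter of Hmgcs1 is shown as the 1 sterol gene promoter here that holds the sterol element TCACNCCAC. The sequence is that of RefSeq on GRCm38.p6, chr13:119690101-119690400, plus strand, 250 bases before to 50 after the start, with the match in capitals at position -137 from the start.
Hmgcs1: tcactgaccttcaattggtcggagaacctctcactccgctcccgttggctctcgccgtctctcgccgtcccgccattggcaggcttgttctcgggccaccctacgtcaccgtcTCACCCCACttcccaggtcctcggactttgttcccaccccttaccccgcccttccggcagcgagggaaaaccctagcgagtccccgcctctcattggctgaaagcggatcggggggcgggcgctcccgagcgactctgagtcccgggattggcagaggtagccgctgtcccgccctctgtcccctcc
The element was found on either strand in the promoters of 1 of 13 measured sterol synthesis genes (7.69%), against 1.22% of the promoters of 6471 genes tested and 1.44% of 27025 promoters. A match is a description of the letters in this window, and no match says nothing of a factor.

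Fatty acid and glycerolipid genes also rose, with 11 of 20 higher, 1 lower and a median of 0.79. Beside Acss2, the largest were Pcyt2, of phosphatidylethanolamine synthesis (1.31), the phosphatidate phosphatase Lpin2 (1.27) and the malic enzyme Me1 (1.18). The desaturases Scd1, Fads2 and Fads1 rose by 0.99, 1.09 and 0.88, and Acly, which makes cytosolic acetyl-CoA, by 0.92. Fasn, the fatty acid synthase, had a difference of -0.14 and Acaca of 0.06. Agpat2, an acyltransferase of phosphatidate synthesis, fell by 0.61, a call that was lost without background correction, without replicate 2 of the 4 h arrays and without replicate 3 of the 24 h arrays.

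Lysosomal genes were higher in 12 of 27 cases and lower in 0, with a median of 0.48, and 5 were higher with 75th percentile scaling without background correction. Lipa, the acid lipase that frees cholesterol from its esters, lay at 6.14, 6.14 and 5.68 at 4 h and at 7.43, 7.66 and 7.56 at 24 h. The groups were apart by 1.56 (standard error 0.13, adjusted p = 2.7e-05), although the 4 h arrays spread more than for most genes. Atp6v0a1, a membrane subunit of the proton pump, also rose by 1.56, and the pump subunits Atp6v0d1, Atp6v0b and Atp6v1d by 0.91, 0.75 and 0.60. Among the hydrolases and membrane proteins Ctsa rose by 0.95, Glb1 by 0.87, Psap by 0.76 and Lamp2 by 0.75, while Ctsl (-0.23), Ctsd (0.08) and Cd63 (-0.01) did not pass. Of 21 autophagy genes 3 rose and 0 fell, to be read against 10.6% higher among all genes tested. The 3 that rose were Sqstm1, a receptor for ubiquitin-tagged cargo (1.27), Ulk2 (0.72) and Atg7 (0.60), and the median of the list was 0.21. Sqstm1 alone still passed without background correction, where Ulk2 was at 0.29 and Atg7 at 0.24. A second probe of Ulk2 gave 0.18, and without replicate 2 of the 4 h arrays the count was 1.

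The list of glutathione synthesis and NRF2 genes had 9 of 19 genes higher and 0 lower (median 0.58). NRF2 is the factor that answers oxidants and electrophiles, and its own gene is in the list beside its targets. Nqo1, a quinone reductase, lay at 9.03, 9.11 and 9.03 at 4 h and at 11.13, 11.06 and 10.99 at 24 h. All 24 h arrays were higher, by 2.00 (standard error 0.07, adjusted p = 3.4e-07). Gclm, a subunit of the enzyme that starts glutathione synthesis, rose by 1.72, the sulfiredoxin Srxn1 by 1.53 and the heme oxygenase Hmox1 by 1.46. The factor's own gene Nfe2l2 (0.03), Keap1 (0.13), the ferritin heavy chain Fth1 (0.00) and Txn1 (-0.51) did not pass. Of 16 glutathione S-transferases 5 rose and 1 fell, and 3 rose when only probes detected on all 6 arrays were tested. The fall was lost without background correction, without replicate 1 or 3 of the 4 h arrays and without replicate 3 of the 24 h arrays. Among all genes tested 10.6% rose and 7.41% fell by 1.5-fold. The risers outside the alpha class were Mgst1 (1.29) and Mgst3 (0.68), Gstp1 fell by 0.59, and the median was 0.18. The antioxidant element TGACNNNGC stood on either strand in 6 of 17 promoters of the NRF2 list (35.3%), against 16.6% of genes tested and 14% of all promoters.

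Protein stress genes did not move as a group. Their counts are to be read against 10.6% higher and 7.41% lower among all genes tested. Of 14 heat shock proteins and co-chaperones 2 rose and 4 fell, with a median of -0.33. The risers were the small heat shock proteins Cryab and Hspb1 (1.5), and the fallers were the mitochondrial chaperonins Hspe1 (-1.29) and Hspd1 (-1.04, and -2.03 with a second probe) with the HSP90 partners Fkbp4 (-0.74) and Ahsa1 (-0.62). Hspa8 (-0.07), Dnajb1 (-0.14) and Hsph1 (0.00) did not pass. Among 16 genes of the endoplasmic reticulum 4 rose and 0 fell (median 0.10), namely Sel1l (0.81, and 0.17 with a second probe), Dnajb9 (0.70), Herpud1 (0.63) and Ero1b (0.60), and the chaperone Hspa5 had a difference of 0.08. Without background correction 2 of them, Sel1l and Herpud1, still passed. Of 15 genes of the ATF4 response 4 rose and 1 fell (median 0.01). The transcription factor Atf3 went from 5.83, 5.79 and 5.86 to 8.41, 8.42 and 8.35, and Ppp1r15a (1.00), Nupr1 (0.84) and Ddit4 (0.73) rose as well. The arrays of Atf3 were apart by 2.57 (standard error 0.06, adjusted p = 1.1e-07). Atf4 (0.17), Trib3 (-0.08), Chac1 (0.01), Asns (0.17) and Ddit3 (-0.22) were not called. The 1 called lower, Stc2, was detected on 1 of 3 arrays at 24 h. Its difference was -0.62 with background correction and -0.20 without, and it was not called without replicate 2 of the 4 h arrays or replicate 1 or 2 of the 24 h arrays. The ATF4 element TGATGNAA stood on either strand in 6 of 14 promoters of this list (42.9%), against 2.92% of genes tested and 4.51% of all promoters.

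Of 11 enzymes of serine, one-carbon and proline metabolism 0 rose and 7 fell (median -0.75). Beside Prodh these were Shmt1 (-1.03) and Gldc (-0.95), which handle glycine, the serine synthesis enzymes Psat1 (-0.75) and Phgdh (-0.73), Mthfd1 (-0.75), and Tyms (-0.76), which makes thymidylate. Without background correction 5 of the 7 enzymes still fell by 1.5-fold, with Shmt1 at -0.54 and Gldc at -0.44 short of it. A second Gldc probe gave -0.47. Among 10 amino acid transporters Slc6a9 (1.34), Slc1a4 (0.70) and Slc38a2 (0.59) rose, and Slc7a5, which imports leucine, fell by 1.08. By the same measure 10.6% of all genes rose and 7.41% fell. Of 17 aminoacyl-tRNA synthetases 0 rose and 2 fell, Kars (-0.73) and Vars (-0.59), and 1 fell without background correction or without replicate 3 of either group. Against 7.41% of all genes lower, this is not a result about the synthetases.

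Endothelial genes were the list with the most calls. Of 28 pan-endothelial markers measured, 24 rose, 0 fell and the median difference was 1.08. Tek, the Tie2 receptor for angiopoietins, lay at 5.60, 5.73 and 6.10 at 4 h and at 8.44, 8.54 and 8.36 at 24 h. The arrays of the groups did not overlap, and the rise was 2.64 (standard error 0.12, adjusted p = 1.5e-06). Adgrl4, an adhesion receptor of angiogenic endothelium, rose by 2.18, the transcription factor Sox18 by 1.87 and the VEGF receptor Flt1 by 1.81. The junction genes Esam (1.71), Pecam1 (1.46) and Cdh5 (1.27) rose, as did Plvap (1.68), Icam2 (1.66), Robo4 (1.38), Egfl7 (1.19) and Emcn (1.13). The nitric oxide synthase Nos3 rose by 0.70, and Vwf, von Willebrand factor, which was detected on no array at 4 h, was at least 1.53-fold higher. The 4 that did not pass were Cd34 (0.54), Gata2 (0.31), Tal1 (0.00) and Lyl1 (-0.35). In bulk RNA, a change in the number of cells of a type and a change in RNA per cell cannot be told apart. The summed level of all markers of this list was 14.40 to 14.43 at 4 h and 15.55 to 15.62 at 24 h.

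**Figure D3:**
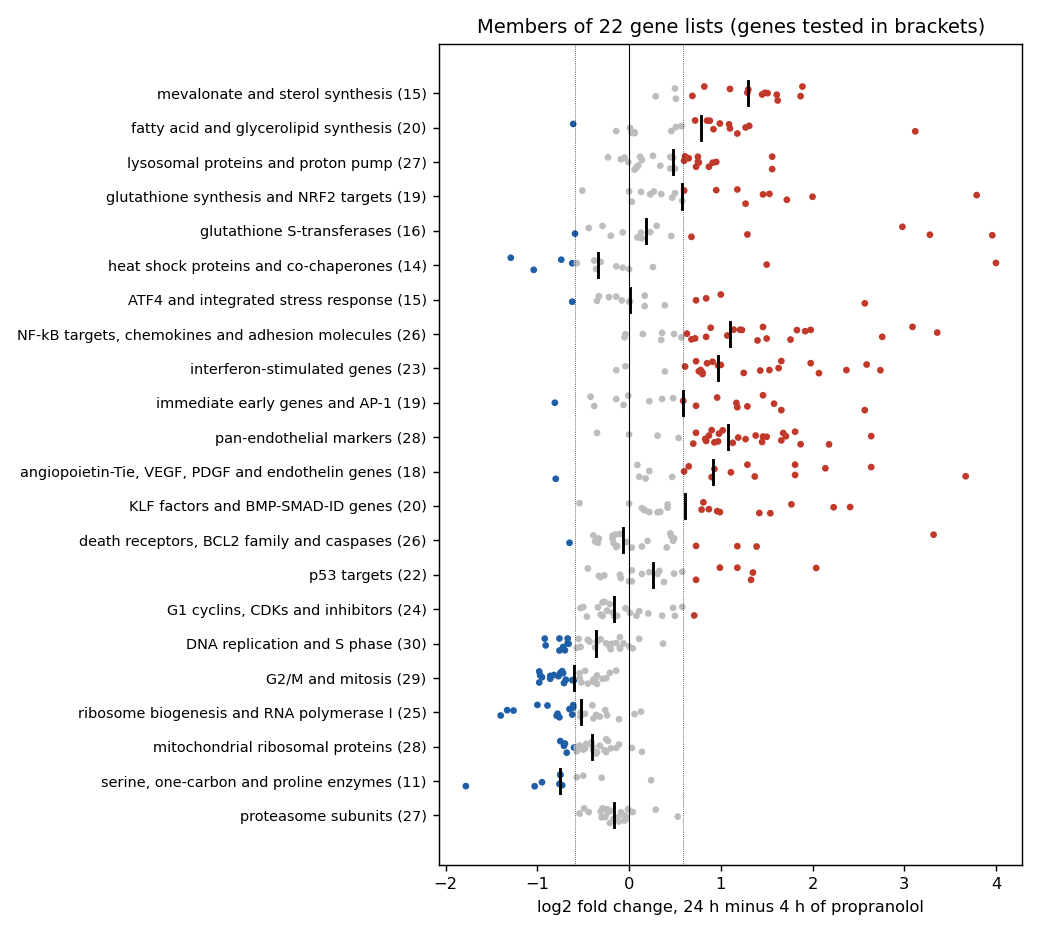
Log2 difference, 24 h minus 4 h, of each measured member of 22 gene lists, with red and blue points for members called higher and lower at 1.5-fold (dotted lines), grey points for the rest and a black bar at the list's median. The pan-endothelial and NF-kB lists lie to the right, with medians of 1.08 and 1.11, the G2/M and serine lists to the left, with medians of -0.60 and -0.75, and no member of the proteasome list was called.

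Ligands and receptors of the vessel wall followed. In the angiopoietin, VEGF, PDGF and endothelin list 12 of 18 genes rose and 1 fell (median 0.92). Among the ligands, Edn1, which encodes the vasoconstrictor endothelin, lay at 6.31, 6.23 and 6.42 at 4 h and at 8.40, 8.51 and 8.47 at 24 h. This rise of 2.14 (standard error 0.07, adjusted p = 3.6e-07) separated all arrays, and beside it Pdgfa rose by 1.37, Pgf by 1.11, Vegfa by 0.65 and Angpt2 by 0.60, whereas Vegfd fell by 0.80. Without background correction the difference for Vegfd was -0.28. Of the receptors and their partners, the phosphatase Ptprb, which acts on Tie2, rose by 1.81, Ramp2 by 1.29, Tie1 by 0.93 and Nrp1 by 0.90.

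The list of KLF transcription factors and of BMP, SMAD and ID genes had 10 of 20 genes higher and 0 lower (median 0.61). Klf4 lay at 7.39, 7.50 and 7.43 at 4 h and at 9.83, 9.95 and 9.77 at 24 h, a rise of 2.41 (standard error 0.07, adjusted p = 2.5e-07) that left no overlap. Smad6, an inhibitor within the BMP pathway, rose by 2.23, Klf2 by 1.77, Klf9 by 1.54 and Klf3 by 1.42. Id1 and Id3, targets of BMP signalling, rose by 0.79 and 0.87, and Klf5 had a difference of -0.54. Of 10 Notch genes 4 rose and 1 fell, against 10.6% and 7.41% of all genes. The receptors Notch4 (1.2) and Notch1 (1.17) and the target Hes1 (0.69) rose, and Nrarp, a target that dampens the pathway, fell by 1.01. Without background correction Notch4 alone was called higher, with Notch1 at 0.53 and Hes1 at 0.58. Of 10 Wnt genes Ctnnb1 rose by 0.67, though not past 1.5-fold without replicate 2 of the 4 h arrays, and Wnt7b and Apcdd1 fell. The Wnt counts are to be read against the same shares of all genes.

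Interferon-stimulated genes were higher for 20 of 23 members and lower for 0 (median 0.97), and 12 of the 20 also reached 1.5-fold without background correction. Many of these genes were dim. Rsad2, the antiviral protein viperin, lay at 8, 7.79 and 7.95 at 4 h and at 10.49, 10.51 and 10.52 at 24 h. Ifit3 went from 6.23, 6.46 and 6.41 to 8.72, 8.75 and 8.73, and the guanylate binding protein Gbp2 from 5.41, 5.24 and 5.62 to 7.52, 7.45 and 7.53. No arrays of the groups overlapped, and the rises were 2.59 (standard error 0.07, adjusted p = 1.7e-07), 2.37 (0.08, 2.9e-07) and 2.07 (0.10, 1.4e-06), with 0.92 to 1.05 for the other probes of Ifit3. Usp18, which removes ISG15 from proteins, rose by 2.74 (1.38 to 2.09 with other probes), and the factors Irf9, Stat2 and Irf1, which drive these genes, by 1.63, 1.43 and 0.61. Irf7, detected on no array at 4 h, was at least 1.58-fold higher. The members that did not pass were Bst2 (0.39), Trim21 (-0.04) and Zbp1 (-0.14). Mean levels on the 9 arrays normalized together were 6.87 in sham, 7.92 at 4 h and 10.55 at 24 h for Rsad2. The same levels were 5.64, 6.36 and 8.75 for Ifit3. The promoters of Rsad2, Ifit3 and Gbp2 are shown because all hold the interferon element, which is GAAA, any 2 bases and GAAA again, here read from the opposite strand (TTTC, any 2 bases, TTTC) and in capitals. They are RefSeq sequences on GRCm38.p6, 250 bases before to 50 after the start, at chr12:26456403-26456702 (minus strand), chr19:34583279-34583578 (plus) and chr3:142620413-142620712 (plus).
Rsad2: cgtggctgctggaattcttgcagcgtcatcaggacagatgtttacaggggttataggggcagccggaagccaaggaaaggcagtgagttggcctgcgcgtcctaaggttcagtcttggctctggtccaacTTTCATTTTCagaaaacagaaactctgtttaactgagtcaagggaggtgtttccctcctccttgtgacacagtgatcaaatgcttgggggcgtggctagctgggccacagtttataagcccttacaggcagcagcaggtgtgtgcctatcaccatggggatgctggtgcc
Ifit3: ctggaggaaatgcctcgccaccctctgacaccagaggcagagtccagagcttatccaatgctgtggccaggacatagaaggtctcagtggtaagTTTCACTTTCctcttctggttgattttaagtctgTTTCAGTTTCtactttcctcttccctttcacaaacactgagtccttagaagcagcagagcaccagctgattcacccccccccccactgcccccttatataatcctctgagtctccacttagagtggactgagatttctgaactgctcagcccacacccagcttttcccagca
Gbp2: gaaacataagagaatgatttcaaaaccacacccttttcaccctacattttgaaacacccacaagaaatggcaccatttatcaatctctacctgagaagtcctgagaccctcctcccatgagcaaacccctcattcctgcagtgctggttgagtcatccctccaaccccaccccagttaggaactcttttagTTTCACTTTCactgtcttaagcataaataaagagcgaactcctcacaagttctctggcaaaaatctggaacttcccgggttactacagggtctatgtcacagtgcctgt
The matches began at position -120 from the start in Rsad2, at -156 and -122 in Ifit3 and at -59 in Gbp2. Of 19 measured members with a promoter, 12 held the element on either strand (63.2%), against 3.52% of genes tested and 3.99% of all promoters.

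Of 26 NF-kB targets, chemokines and adhesion molecules 19 were higher and 0 lower (median 1.11). Beside Icam1 and Cxcl1, the receptor Cd40 went from 5.44, 5.34 and 5.40 to 8.10, 8.13 and 8.23, a difference of 2.76 with its brightest probe and of 0.28 to 2.44 with the others. The chemokines Cxcl10, Ccl2 and Cxcl12 rose by 1.98, 1.5 and 1.14, and Cxcl2, detected on no array at 4 h, was at least 2.65-fold higher. Among the inhibitors and subunits of NF-kB, Nfkbiz rose by 1.76, Nfkbia by 1.40 and Relb by 1.21, and the adhesion molecules Selp and Vcam1 rose by 1.23 and 1.07. Sele (-0.05), Nfkb2 (0.15) and Rela (0.49) did not pass. Of 14 genes of MHC class I presentation 5 rose and 1 fell, and a single member rose without background correction, H2-T23 (1.35 with the correction), whose relatives are similar in sequence. The MHC counts are to be read against 10.6% higher and 7.41% lower among all genes. Macrophage markers were checked beside both lists. Of 13 such markers with a probe 10 were detected on no array, Ptprc and Adgre1 among them. Cd14 was detected on all 6 arrays and, with a difference of 0.45, did not pass. The summed level of the 13 was 8.24 to 8.27 at 4 h and 8.33 to 8.37 at 24 h. Of 11 lymphocyte markers 9 were detected on no array, and their sum was 7.79 to 7.84 and 7.79 to 7.85.

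Immediate early genes were higher for 10 of 19 members and lower for 1 (median 0.59). Beside Atf3, Ier3 rose by 1.66, Fos by 1.58, Junb by 1.46, Jund by 1.29, Fosb by 1.18 and Jun by 0.73, while Egr1 (-0.01), Egr2 (-0.38) and Fosl1 (-0.42) did not pass and Arc fell by 0.81. Arc was not called lower without background correction. Of 15 genes that restrain MAP kinases 3 rose and 2 fell, against 10.6% and 7.41% of all genes. Without background correction 3 rose and 0 fell, without replicate 3 of the 24 h arrays 5 rose and 1 fell, and without replicate 3 of the 4 h arrays 1 fell. Dusp8, a phosphatase for stress kinases, lay at 5.62, 5.50 and 5.66 at 4 h and at 7.39, 7.52 and 7.34 at 24 h, with no overlap and a rise of 1.82. Phlda1 rose by 1.22 and Dusp1 by 1.17, Etv5 (-1.01) and Etv4 (-0.60), which follow ERK activity, fell, and Dusp6 (-0.36) and Spry4 (-0.08) did not pass.

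Most genes of beta-adrenergic and cAMP signalling did not pass, with 5 of 20 higher, 0 lower and a median of 0.14, and 2 were higher without background correction. Without replicate 1 of the 4 h arrays 1 was lower. Counts of this paragraph are to be read against 10.6% higher and 7.41% lower among all genes. Adcy4, an adenylate cyclase, lay at 10.28, 10.23 and 10.34 at 4 h and at 12.13, 12.10 and 12.07 at 24 h. The rise of 1.82 (standard error 0.06, adjusted p = 3.6e-07) left the groups far apart, and other probes gave 1.75 to 2.05. Grk5, a kinase that desensitizes these receptors, rose by 1.14 (0.56 with a second probe), Crem, a factor that cAMP induces, by 1.03 (0.39 to 0.91 with other probes, and 0.40 without background correction), and Akap12 by 0.64. Rgs2 was detected on no array at 4 h and was at least 1.30-fold higher (difference 0.29 without background correction). The G protein Gnas (0.07), the kinase subunits Prkaca (-0.18) and Prkar1a (0.14) and Arrb2 (-0.54) did not pass. Of 14 clock genes 6 rose and 0 fell (median 0.47), 2 of them also without background correction. The repressor Bhlhe40 rose by 2.22, Nfil3 by 1.10, Nr1d1 by 0.79 and Per1 by 0.76, while Per2 (-0.05) and Dbp (-0.09) were not called.

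Of 29 G2/M and mitosis genes 0 rose and 15 fell by 1.5-fold or more (median -0.60), none by 2-fold, where 7.41% of all genes fell. Plk1, a kinase of mitotic entry and exit, lay at 10.50, 10.43 and 10.51 at 4 h and at 9.53, 9.45 and 9.52 at 24 h. The 24 h arrays were all lower, with a difference of -0.98 (standard error 0.06, adjusted p = 7.4e-06). The checkpoint kinase Bub1b went from 8.44, 8.40 and 8.44 to 7.29, 7.43 and 7.63 (difference -0.98, adjusted p = 5e-05), again without overlap. Other members that fell were Cdca8, a subunit of the chromosomal passenger complex (-0.97), the separase Espl1 (-0.95), Cdc20, which starts anaphase (-0.86), the spindle kinase Aurka (-0.75) and Birc5 (-0.72). Cdk1 (-0.52), Top2a (-0.39) and Nusap1 (-0.14) did not reach 1.5-fold. The promoters of Plk1, Bub1b, Cdca8 and Espl1 are shown because all hold TTTGAA, the letters of the cell cycle homology region, in capitals. They are RefSeq sequences on GRCm38.p6, 250 bases before to 50 after the start, at chr7:122159185-122159484 (plus strand), chr2:118597961-118598260 (plus), chr4:124936868-124937167 (minus) and chr15:102296043-102296342 (plus).
Plk1: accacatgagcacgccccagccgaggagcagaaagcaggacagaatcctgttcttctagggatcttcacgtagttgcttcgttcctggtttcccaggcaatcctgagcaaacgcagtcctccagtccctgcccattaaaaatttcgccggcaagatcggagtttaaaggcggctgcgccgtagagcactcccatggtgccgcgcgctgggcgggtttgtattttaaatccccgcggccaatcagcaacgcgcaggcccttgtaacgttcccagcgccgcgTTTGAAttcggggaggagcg
Bub1b: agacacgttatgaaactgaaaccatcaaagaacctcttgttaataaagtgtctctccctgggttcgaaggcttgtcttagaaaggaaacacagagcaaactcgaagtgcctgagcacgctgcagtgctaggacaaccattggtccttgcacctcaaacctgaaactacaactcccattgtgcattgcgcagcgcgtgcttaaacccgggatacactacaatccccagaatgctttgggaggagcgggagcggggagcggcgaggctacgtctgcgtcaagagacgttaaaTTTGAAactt
Cdca8: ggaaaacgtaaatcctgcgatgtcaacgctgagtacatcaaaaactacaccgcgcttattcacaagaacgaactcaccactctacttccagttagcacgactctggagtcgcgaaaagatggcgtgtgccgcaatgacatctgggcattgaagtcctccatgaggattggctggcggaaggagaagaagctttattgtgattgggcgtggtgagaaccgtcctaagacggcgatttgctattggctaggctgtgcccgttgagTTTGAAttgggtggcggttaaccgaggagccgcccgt
Espl1: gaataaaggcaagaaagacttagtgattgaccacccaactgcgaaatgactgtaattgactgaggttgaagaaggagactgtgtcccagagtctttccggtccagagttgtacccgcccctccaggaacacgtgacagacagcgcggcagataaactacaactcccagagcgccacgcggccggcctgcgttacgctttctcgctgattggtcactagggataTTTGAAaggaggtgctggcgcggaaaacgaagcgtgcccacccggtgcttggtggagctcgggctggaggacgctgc
The matches began at position 31 from the start in Plk1, 41 in Bub1b, 14 in Cdca8 and -27 in Espl1. Of 26 measured members with a promoter, 19 held TTTGAA on either strand (73.1%), against 13.7% of genes tested and 20.2% of all promoters. The CCAAT box, CCAAT, was in 21 of the 26 (80.8%), against 44.3% of genes tested and 41.1% of all promoters. In Cdca8 the last base of TTTGAA is also the first base of a CCAAT match on the other strand.

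DNA replication genes were lower for 9 of 30 members and higher for 0 (median -0.36), and 4 of these fell by 1.5-fold without background correction. Among the fallers were the dUTPase Dut (-0.92), the single-strand binding protein Rpa2 (-0.91), the thymidine kinase Tk1 and Tyms (-0.76 each), and Cdc6 (-0.72) and Mcm7 (-0.67), which prepare replication origins. Mcm2 (0.04), Mcm6 (0.37) and Rrm2 (-0.06) did not pass, and neither did Pcna, the sliding clamp of DNA polymerase (-0.14, adjusted p = 0.25).

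Of 24 genes of the G1 list, several of which the study followed, 1 was higher and 0 were lower. The shares over all genes were 10.6% and 7.41%. Cdkn1a, the inhibitor p21, lay at 11.33, 11.34 and 11.36 at 4 h and at 11.93, 11.93 and 11.92 at 24 h. The groups did not overlap, but the difference of 0.58 (standard error 0.06, adjusted p = 8e-05) was just under 1.5-fold, and the other probes gave 0.90 and 0.93. Cdkn1b, the inhibitor p27, differed by 0.48 (adjusted p = 0.001). Ccnd1, cyclin D1, lay at 12.54, 12.39 and 12.51 at 4 h and at 12.26, 12.20 and 12.35 at 24 h. Its arrays were all lower at 24 h, by a small step of -0.21 (adjusted p = 0.04), where the other probes gave -0.72 and -0.20. Ccne1, cyclin E1, gave -0.04 (adjusted p = 0.71) with overlapping arrays, and Cdk6 gave -0.29 (adjusted p = 0.021). The 1 called higher was Rb1, the retinoblastoma protein (0.71). None was called higher without background correction, 2 were without replicate 3 of either group, and 1 was called lower without replicate 2 of the 4 h arrays. Cdk4 and Trp53 were not analysed here.

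Of 22 p53 targets 6 rose and 0 fell (median 0.26). Gadd45b, a stress-induced regulator of growth arrest, lay at 5.11, 5.07 and 5.22 at 4 h and at 7.2, 7.22 and 7.11 at 24 h, a rise of 2.04 without overlap. Gadd45a rose by 1.35, Plk2 by 1.33 and Trp53inp1 by 0.99, while Mdm2 (0.33), Bbc3 (0.03) and Ccng1 (-0.45) did not pass. Of 26 death receptor, BCL2 family and caspase genes 4 rose and 1 fell (median -0.07), against 10.6% and 7.41% of all genes. Without background correction 2 rose and 0 fell. Beside Casp4, the killer proteins Bcl2l11 (1.39, and 0.50 to 1.09 with other probes) and Bmf (at least 1.47-fold, detected on no array at 4 h) and the death receptor Fas (1.18, and 0.62 with a second probe) rose, and Bik fell by 0.65 (difference without background correction -0.31). Mcl1 (0.48), Bcl2l1 (-0.14), Casp8 (-0.14) and Casp9 (-0.10) did not pass.

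Of 25 genes of ribosome biogenesis and RNA polymerase I 0 rose and 12 fell (median -0.53). Ncl, nucleolin, lay at 9.33, 9.37 and 9.47 at 4 h and at 8.07, 7.95 and 7.96 at 24 h, and a second probe gave -1.02. All 24 h arrays were lower, by -1.40 (standard error 0.07, adjusted p = 2e-06). Bop1, of large subunit assembly, fell by 1.33 (standard error 0.18). Rrp9 (-1.26) and fibrillarin, Fbl (-1), fell as well, while Nop58 (-0.32) and Npm1 (-0.36) did not pass. The E-box CACGTG stood in 4 of 21 promoters of this list (19%), against 12.1% of genes tested and 8.09% of all promoters. Of the 9 members called lower that had a promoter, 1 held it (11.1%), and those of Ncl and Rrp9 did not. Among 12 genes of MYC and polyamines 3 rose and 2 fell, and 1 fell without background correction, without replicate 2 of the 4 h arrays or without replicate 3 of the 24 h arrays. These counts are to be read against 10.6% higher and 7.41% lower among all genes. Smox and Sat1, which break down polyamines, rose by 0.99 and 0.97, Srm, which makes spermidine, fell by 0.87, and Myc itself differed by 0.02.

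The lists for other cell machinery had few calls, to be read against 7.41% lower and 10.6% higher among all genes. Of 22 cytosolic ribosomal proteins 2 fell (Rpl30, -1.02, and Rplp0, -1). The median was -0.08, and 4 fell with 75th percentile scaling and no background correction. Of 28 mitochondrial ribosomal proteins 5 fell and the median was -0.40, with 1 lower in the authors' normalized table and 7 with median centring. Oxidative phosphorylation had 2 of 26 lower, Cyc1 (-0.84) and Atp5a1 (-0.69, and -0.33 without background correction). None of 27 proteasome subunits was called. Lower were 1 without replicate 3 of the 24 h arrays and 3 with 75th percentile scaling and no background correction. Of 24 genes of glycolysis and hypoxia 4 rose, 2 of them without background correction, led by Ndrg1 (1.44), while Ldha (-0.01) and Pgk1 (-0.47) did not pass.

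Genes of matrix and adhesion were higher in part. Of 19 matrix and integrin genes 6 rose and 0 fell (median 0.32), and 3 rose with 75th percentile scaling without background correction. Among the 6 were the fibronectin receptor Itga5 (1.32) and the basement membrane genes Nid1 (1.14), Lamc1 (0.91) and Col4a2 (0.73). The matrix proteases with their inhibitors had 7 of 18 genes higher and 2 lower, with 3 higher under that scaling. Adamts4, which cuts proteoglycans, went from 8.05, 8.08 and 8.23 to 10.19, 10.25 and 10.20, a rise of 2.09, and Adamts1 rose by 1.45. The stromelysin Mmp3 (-0.80) and the inhibitor Timp1 (-0.63) fell. In the YAP/TEAD list 2 of 13 genes rose, Tead4 and Wwtr1 (0.59 each), and 3 fell, against 10.6% and 7.41% of all genes. None rose without background correction or without replicate 1 or 3 of the 4 h arrays, and 1 rose without replicate 1 or 3 of the 24 h arrays. The fallers were Axl, Birc5 (-0.72) and Yap1 itself (-0.59), with the common target genes Ccn1 (-0.14), Ccn2 (0.32) and Ankrd1 (-0.17) not called. Of 16 actin genes 1 rose (Fhod1, 0.94) and 2 fell (Cfl1, cofilin, -1.13, and Acta2, a bound only). The actin counts are to be read against the same shares of all genes.

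The smaller groups were mixed, and their counts are to be read against 10.6% higher and 7.41% lower among all genes. Of 14 histone genes 3 rose, with H2bc4 (1.07) and H1f2 (0.97) the largest, and H3c1 fell by 0.68. Without background correction 0 fell, without replicate 1 or 2 of the 4 h arrays 2 fell and without replicate 2 of the 24 h arrays 3 fell, and probes for these genes may share transcripts. The proliferins Prl2c3 and Prl2c4, placental hormones of the prolactin family that are also made by growing mouse cells, rose by 2.46 and 2.43, and copies of this family are nearly identical. The keratins Krt18 (-0.88) and Krt19 (-0.66) fell, and Krt14, detected on no array at 4 h, was at least 1.36-fold higher. None of these 3 keratins was called without background correction. Krt14 was not called without replicate 1 of the 24 h arrays, and 1 keratin was called lower without that array or without replicate 3 of the 4 h arrays. The summed level of 12 epithelial markers was 9.16 to 9.30 at 4 h and 8.79 to 8.98 at 24 h. The sum of 15 fibroblast and mural markers was 8.73 to 8.81 and 8.67 to 8.77, with Col1a1, Col1a2, Dcn and Rgs5 among the 9 detected on no array. The part of these markers in the results was not tested.

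The levels on the sham arrays are given without a test, since a difference between sham and 4 h would use the same 4 h arrays. With all 9 arrays normalized together, Cryab lay at 7.32 to 7.93 in sham, 8.01 to 8.09 at 4 h and 11.89 to 12.27 at 24 h. Tek lay at 5.61 to 5.95, 5.60 to 6.09 and 8.37 to 8.55, with sham and 4 h arrays overlapping. Plk1 lay at 10.50 to 10.62 in sham, 10.47 to 10.55 at 4 h and 9.47 to 9.56 at 24 h, with the same overlap. Edn1 was lowest at 4 h, with 7.99 to 8.13 in sham, 6.22 to 6.41 at 4 h and 8.41 to 8.52 at 24 h. Pdgfb (7.2 to 7.29, 6.40 to 6.47 and 10.14 to 10.18) and Dusp8 (6.40 to 6.49, 5.49 to 5.65 and 7.34 to 7.52) were also lowest at 4 h. For these genes the sham arrays lay above all 4 h arrays and below all 24 h arrays. Wnt7b went down in steps, with 9.20 to 9.45 in sham, 8.69 to 8.77 at 4 h and 6.76 to 6.96 at 24 h. None of these placements was tested.

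**Figure D4:**
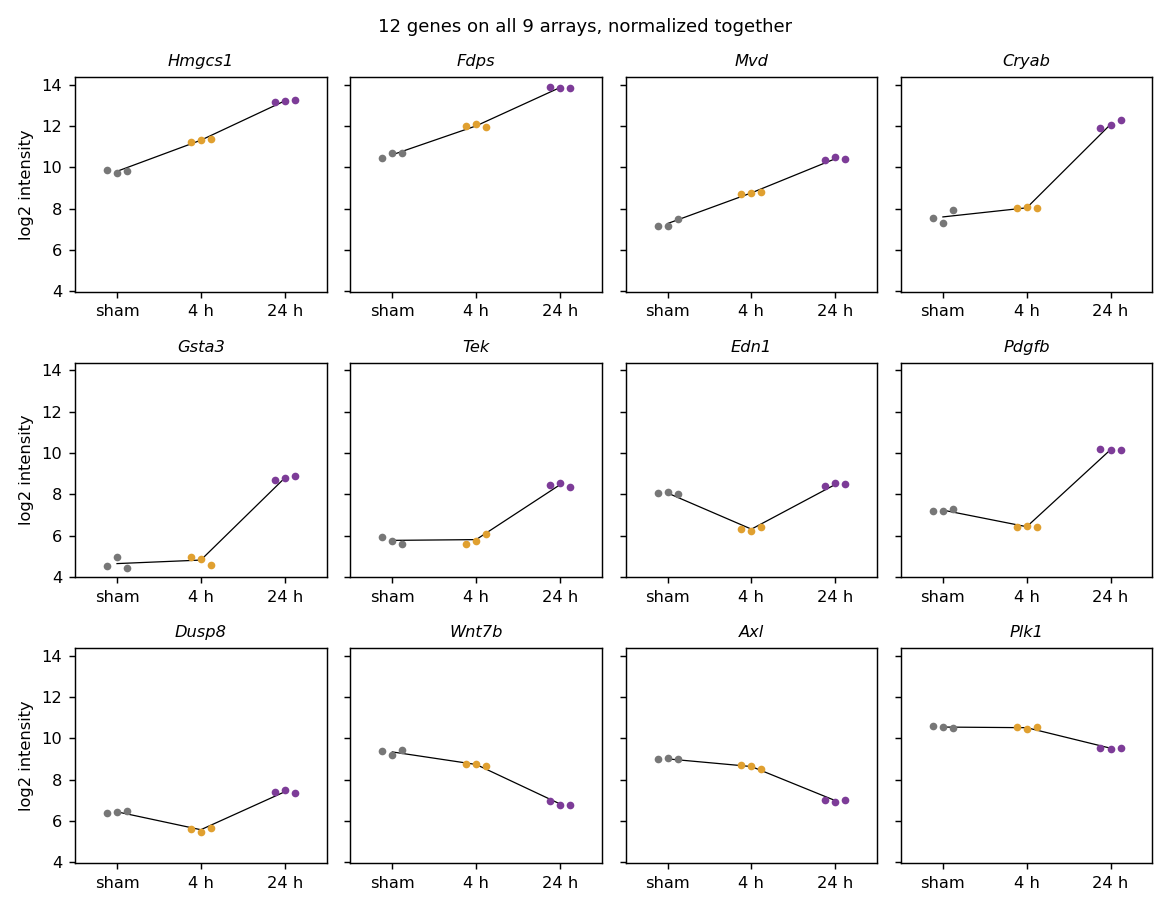
Log2 intensity of 12 genes on all 9 arrays normalized together, 1 point per array, with a line through the means of sham, 4 h and 24 h. Hmgcs1, Fdps and Mvd step up at both times, Cryab, Gsta3 and Tek are higher at 24 h than on any other array, Edn1, Pdgfb and Dusp8 are lowest at 4 h, and Wnt7b, Axl and Plk1 are lowest at 24 h.

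Background correction set the size of the difference for dim genes. Without it, 173 of the 341 genes called higher and 22 of the 91 called lower still differed by 2-fold. The difference for Slc40a1 was 2.47 in place of 4.06, for Gsta3 2.35 in place of 3.96, for Icam1 1.79 in place of 3.36 and for Prodh -0.74 in place of -1.78. Brighter genes moved less, with 3.68 for Cryab, 3.25 for Slc7a11, 2.92 for Cxcl1 and 1.85 for Hmgcs1. Among the lists, 10 sterol synthesis, 20 endothelial, 16 NF-kB and 13 G2/M members still passed 1.5-fold in the direction given above.

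**Figure D5:**
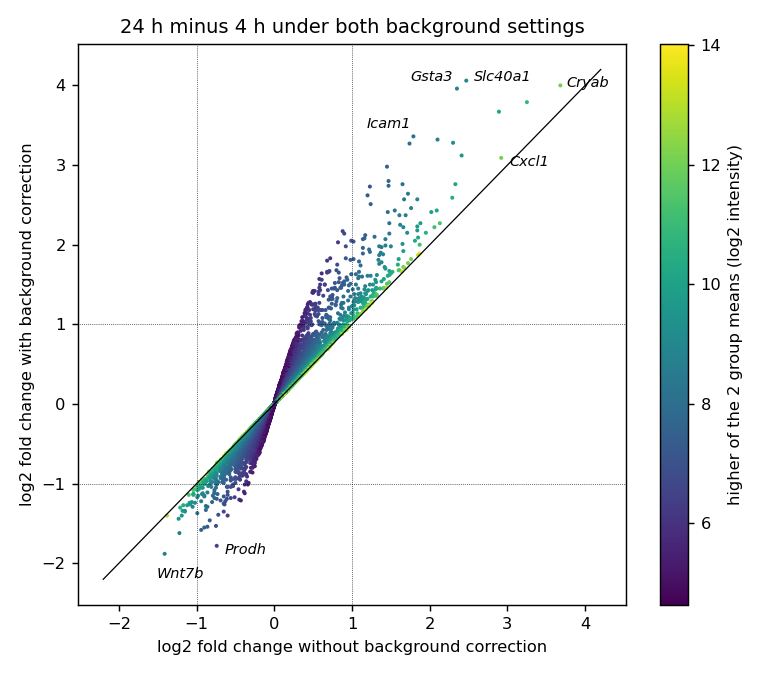
Log2 difference of each gene with background correction (vertical axis) against without it (horizontal axis), coloured by the higher of the mean levels of the groups, with dotted lines at 2-fold and a line of equal values. Among the labelled genes Slc40a1, Gsta3 and Icam1 lie farthest from the line, Icam1 with 3.36 against 1.79. They were dim at 4 h (means of 4.85, 4.81 and 4.68), but their colours follow the 24 h means (8.91, 8.77 and 8.04). Cxcl1, bright at both times, lies near the line with 3.09 against 2.92.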

How the data were processed

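RNA of SVR cells was hybridized to Illumina mouse bead arrays. Per the methods, the authors amplified and biotin-labelled RNA pooled from biological replicates and scanned arrays in triplicate. No source used here names the bead summary software. The tables that the authors deposited hold, per array and probe, the mean intensity without normalization, a detection p-value against negative controls, the standard error over beads in intensity units and the count of beads (median 37 to 40). A second deposited table is the intensity times a constant per array, and the value table repeats it.

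Groups came from the labels. The 6 treated arrays were normalized with limma 3.58.1 in R 4.3.3 (normexp with detection p-values, offset 16, quantile) and taken to log2. Of 25697 probes, 23978 had 1 gene symbol in the platform annotation and 1719 none. Testing was limited to the 11478 probes, 650 of them without symbol, with a detection p under 0.05 on each array of at least 1 group. They covered 7870 genes, each given by its tested probe of highest mean level. The groups were compared with lmFit and eBayes (two-sided), with Benjamini-Hochberg adjustment over all probes tested. Calls needed an adjusted p under 0.05 with 2-fold, or with 1.5-fold for list members. By the 1.5-fold measure 10.6% of all genes tested were higher and 7.41% lower, and list counts are to be read against these shares. A bound divides the bright group's mean by the lowest detected signal of the dim group. Both are taken after background correction, and the ratio can be smaller than the bound without it. The 9 arrays were normalized together for the sham levels.

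The comparison, the 47 gene lists and the genes were chosen with earlier results of these data known. Named were the 12 largest rises and falls, up to 4 bounds per direction, up to 4 members per list, the genes the study followed and the defining genes of a list. Further list members were named after their values were seen. Same-group arrays differed by 0.823 to 0.929 of their combined bead error (0.674 from bead noise alone) and were counted as separate. Position on the first BeadChip and group cannot be told apart. Figures were drawn with matplotlib 3.10.9. Alternatives covered normalization, background, detection filter, probe choice, test, blocks and each array left out.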

Additional observations from a re-analysis of the deposited data

How the results depend on the processing

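Signs were compared for the 170 named genes only, and none that passed the adjusted p of 0.05 changed sign under any setting tried. Of these genes, 164 kept their direction and their side of that limit in all settings. The fold limit was not part of this, and many dim genes fell below it without background correction. The side changed for Mxd3, Ulk2 and Krt19 in the unmoderated test. It also changed for Krt14 with 75th percentile scaling and no background correction together, and for Ccnd1 and Cdk6 under several settings. The count of genes 2-fold higher, 341, became 203 with the authors' normalized table, 151 with 75th percentile scaling and no background correction together, 173 without background correction alone and 223 with an offset of 50. The count of genes lower, 91, became 19, 42, 22 and 44 in the same order. All the genes called higher under these settings were among the 341; of the genes called lower 16 of 19, 33 of 42, 22 of 22 and 44 of 44 were among the 91. Without background correction the same background stays in both groups, which by construction lowers the ratios of dim probes; the cause was not tested for the other settings. Leaving out each array in turn gave 337 to 351 higher and 87 to 99 lower, where a group of 2 arrays was left. The replicate number as a block gave 341 and 91, but the numbers did not pair the arrays (correlation of deviations -0.0094, -0.0034 and 0.0068; 1 of 6 arrays correlated best with its own number). The BeadChip as a block gave 339 and 93. Testing only probes detected on all 6 arrays gave 297 and 86.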
